A study of Rattus norvegicus with 8 samples.

Results

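Genes of glucose uptake, glycolysis, glycogen turnover and pyruvate entry into the mitochondrion were followed in rat soleus, a calf muscle built mainly of slow fibres that holds posture. A list of 37 genes was matched to the probe sets whose platform annotation names a single gene, and 60 of the 8740 probe sets, for 31 of the 37 genes, belonged to it, out of 4736 genes named in this way. The values are MAS5 signal intensities, an arbitrary linear brightness scale with 1 value per probe set. Probe sets with a mean signal under 25.8 over all arrays were not tested, which left 50 probe sets for 29 genes. Pfkfb2 and Pygl were on the array below that limit, and Gpi, Tpi1, Gapdh, Eno2, Ldha and Gys1 are not analysed here.

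All rats were female, and the sources name neither strain nor age. Control soleus came from rats with 12 h of spontaneous cage activity (3 arrays). Unloaded soleus came from rats whose hindlimbs had borne no weight for 12 h (3 arrays), and walked soleus from rats that were unloaded for 12 h and then walked on a treadmill for 2 h (2 arrays). The walking was given in 30 min bouts alternating with 30 min of cage activity over 4 h, so walking, renewed standing in the cage and the 4 further hours cannot be told apart. Each array held a pool of soleus RNA from 8 to 10 rats, and p-values therefore measure the spread between pools and not between rats.

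Muscle takes up glucose through transporters of the Slc2a family, traps it as glucose 6-phosphate with a hexokinase, and then either stores it as glycogen or breaks it down to pyruvate. Pyruvate leaves as lactate or enters the mitochondrion through pyruvate dehydrogenase, which is switched off by the Pdk kinases. Most steps have several isoform genes, of which one is the main muscle form and others are widespread or belong mainly to other tissues.

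Array medians ran from 37.1 to 42.4, and log2 signals of the tested probe sets correlated at 0.949 to 0.963 within groups and 0.913 to 0.945 between groups. All 6 measured slow-fibre markers (Myh7, Tnni1, Tpm3, Myl2, Myl3 and Atp2a2) passed the signal limit, with a summed signal of 20560 to 23110 in control, 22080 to 30110 in unloaded and 28220 to 31060 in walked arrays. The 8 measured fast-fibre markers summed to 8274 to 10970, 11770 to 13650 and 8635 to 9421. The fast-marker sum was thus higher in every unloaded array than in any other array. The slow markers had a median log2 fold change of 0.26 with unloading, in which Tpm3 fell by 0.95 (adjusted p = 0.00594, limma). Tnni1 (0.49), Myl3 (0.40), Myl2 (0.28), Myh7 (0.24) and Atp2a2 (-0.01) were not called. In walked against control their median was 0.53. Tnni1, Myl2 and Myl3 rose there by 0.58 to 0.60 (adjusted p 0.0377 to 0.0491), and Tpm3 (-0.47) was among those not called. Of the fast markers, Myh2 and Tnni2 fell from unloaded to walked soleus (adjusted p = 0.0303 and 0.0278). The fast list had a median of -0.39 there, with Myh1 (0.49, not called) going the other way. In whole-muscle RNA, fewer cells of a type and less RNA per cell cannot be told apart. Several members had a low value in control pool 3 alone, as given beside them. The leukocyte markers (6 of 10 measured) summed to 1222 to 1258, 1208 to 1430 and 958.9 to 1013. With unloading their median log2 fold change was 0.01, in which Cd48 rose (adjusted p = 0.00634). RT1-Da (0.28), Lyz2 (0.10), Cd4 (-0.09), Cd74 (-0.34) and Ptprc (-0.83) were not called. In walked against control the median was -0.32, in which Cd74 and RT1-Da fell. Cd48 (0.92), Cd4 (0.43), Lyz2 (-0.05) and Ptprc (-0.85) were not called there. RT1-Da also fell from unloaded to walked soleus (adjusted p = 0.00565). The adipocyte markers (3 of 6 measured) summed to 1192 to 1500, 1167 to 1437 and 1124 to 1430, with a median log2 fold change of -0.28 with unloading, in which Fabp4 rose by 1.52 while Lep (-0.28) and Cfd (-0.43) were not called. The smooth muscle markers (5 of 6) summed to 4008 to 4783, 3712 to 4923 and 4587 to 5706. Des was the brightest of them, with means of 2366, 3020 and 3555, so that sum is not a level of smooth muscle alone. The list had a median of -0.38 with unloading, in which Tagln fell by 0.96 and Des (0.34) was among the 4 not called. The part of these cell types in the members' values was not tested.

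Each fold change below is on the log2 scale with its standard error (SE) from limma fitted to all 5244 tested probe sets, and a gene rose or fell where its Benjamini-Hochberg adjusted p over those probe sets was under 0.05. A gene is represented by its brightest tested probe set unless another is named. Unloading changed 5 of the 29 genes, with 3 rises (Pfkfb1, Slc16a1 and Pdk4; 3.71% of all genes rose) and 2 falls (Slc2a1 and Pgam1; 2.5% of all genes fell). That is 17.2% of the members, against 6.21% of all 3154 tested genes. Walking after unloading changed 4 of 29 (13.8%, against 4.09% of all genes), with 3 rises (Slc2a1, Hk2 and Pgam1; 2.35% of all genes) and 1 fall (Pfkfb1; 1.74%). In walked against control soleus 4 of 29 differed (13.8%, against 8.37%): 3 were higher (Slc2a1, Hk2 and Pgam1; 3.74% of all genes) and 1 was lower (Aldoc; 4.63%). The 3 comparisons share arrays in pairs and are not independent of each other.

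The median log2 fold change of the 29 genes was -0.01 with unloading, -0.01 from unloaded to walked soleus and 0.02 between walked and control soleus. Over all tested genes it was -0.08, -0.05 and -0.11. The centre of the pathway thus lay near that of all genes, while single genes moved by up to 2.30. Without control pool 3 or any 1 unloaded pool the first count was 3 of 29, and the last was 0 to 2 of 29 without any 1 array. Beside Hk2, the calls lost with no filter on signal were those given below for Slc16a1 (both probe sets) and Pdk4 and, against control, for Aldoc, the third Pgam1 and the middle Pgm1 probe set. Without a mean-variance trend, and again beside Hk2, those of Slc16a1 and Pdk4 were lost. So were those of the first and the third Pgam1 and the middle Pgm1 probe set against control. That of the dimmest Pgm1 probe set against unloaded soleus was lost too.

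**Figure D1:**
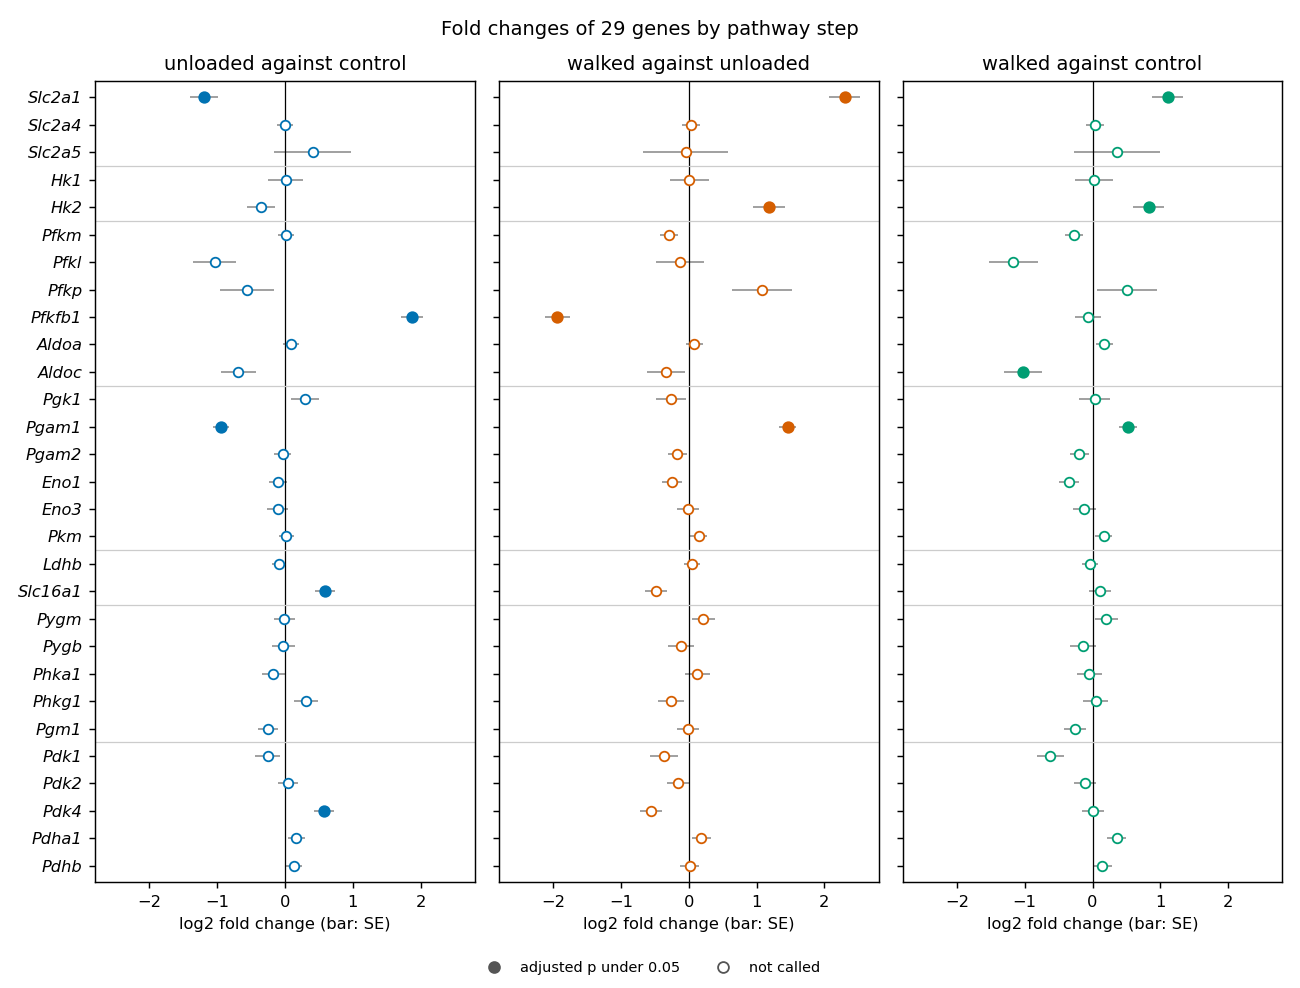
Log2 fold change (x axis, bar = SE) of the 29 tested genes (y axis, ordered from glucose uptake at the top to pyruvate dehydrogenase at the bottom, with lines between pathway steps) in the 3 comparisons. Filled points have an adjusted p under 0.05. Filled points are few and run from -1.94 for Pfkfb1 to 2.30 for Slc2a1, both in walked against unloaded soleus. The filled point nearest 0 is Pgam1 at 0.52 in walked against control. Some open points lie further out, such as Pfkl at -1.17 in that comparison.

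Promoter sequences are shown for the 3 genes that were higher after walking, Slc2a1, Pgam1 and Hk2, and for Pfkfb1, which ran the other way. Each is the 250 bases before 1 annotated start of transcription in RefSeq (rat assembly GRCr8), 5′ to 3′ on the gene's strand. Capitals mark ACGTG, the core of the hypoxia response element, and GGGCGG, a GC box, on either strand.
Slc2a1, chr5:138002272-138002521 (+ strand): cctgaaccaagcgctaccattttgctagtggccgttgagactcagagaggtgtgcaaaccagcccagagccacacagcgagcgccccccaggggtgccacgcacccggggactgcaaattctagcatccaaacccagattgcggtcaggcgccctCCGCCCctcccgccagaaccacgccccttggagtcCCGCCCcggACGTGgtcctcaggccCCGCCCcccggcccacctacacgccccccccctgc
Pgam1, chr1:250672902-250673151 (+ strand): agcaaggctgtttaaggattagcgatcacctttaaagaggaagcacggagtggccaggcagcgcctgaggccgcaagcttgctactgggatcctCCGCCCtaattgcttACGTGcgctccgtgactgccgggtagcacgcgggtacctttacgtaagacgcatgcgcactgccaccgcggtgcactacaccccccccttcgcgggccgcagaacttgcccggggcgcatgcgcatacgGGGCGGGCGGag
Hk2, chr4:116841276-116841525 (- strand): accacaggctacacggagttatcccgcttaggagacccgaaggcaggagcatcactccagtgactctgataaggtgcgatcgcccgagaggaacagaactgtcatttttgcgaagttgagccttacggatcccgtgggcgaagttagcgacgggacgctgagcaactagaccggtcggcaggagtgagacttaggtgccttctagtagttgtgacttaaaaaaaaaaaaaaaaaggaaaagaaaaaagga
Pfkfb1, chrX:22941926-22942175 (+ strand): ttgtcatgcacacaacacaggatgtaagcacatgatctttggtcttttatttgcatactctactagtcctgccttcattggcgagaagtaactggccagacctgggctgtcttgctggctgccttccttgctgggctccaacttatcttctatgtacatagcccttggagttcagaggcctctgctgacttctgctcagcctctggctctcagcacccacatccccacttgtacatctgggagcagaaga

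The Slc2a1 and Pgam1 windows each held 1 ACGTG and 3 GGGCGG, while the Hk2 and Pfkfb1 windows held neither. Windows were found for 27 of the 29 tested genes, all but Pgk1 and Slc2a4. ACGTG occurred in a window of 13 of the 27 genes (48.1%), among them also Aldoa, Aldoc, Pfkm, Pgm1, Pygm and Slc16a1, against 23.1% of 2589 other tested genes and 16.6% of all 33469 windows. GGGCGG occurred in 55.6% of the 27 against 59.6% of the other tested genes and 30.5% of all windows. CACGTG, the palindromic E-box that contains ACGTG, was in 3 of the 27 genes (11.1%; Pdhb, Pdk2 and Slc16a1), against 8.65% of the other tested genes and 5.59% of all windows. The core of the cAMP response element, TGACG, was in 11.1%, against 28.2% and 18.2%, and the TATA box TATAAA was in 7.41%, against 9.73% and 12.9%. The windows of the 27 genes had a median GC content of 59.2%, near the 60.4% of the other tested genes. These are matches of letters in short windows, and binding of any factor was not measured.

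Slc2a1 encodes GLUT1, the widespread glucose transporter of the cell surface. Its signal was 76.3, 61.9 and 75.2 in control pools 1 to 3, 30.9, 32.4 and 29.9 in unloaded pools and 129 and 181 in walked pools. The 3 groups did not overlap, with every unloaded array lowest and both walked arrays highest. Slc2a1 fell by 1.19 ± 0.21 in unloaded against control (adjusted p = 0.00535, limma), which is 2.28-fold lower. It rose by 2.30 ± 0.23 from unloaded to walked (4.92-fold, adjusted p = 0.000106) and was 1.11 ± 0.23 above control after walking (2.16-fold, adjusted p = 0.0165). The last call was lost without control pool 2 (adjusted p = 0.0543) or walked pool 2 (0.174; log2 fold change 0.87). A second Slc2a1 probe set was too dim to test, with 26.2, 35.1 and 18.0 in control, 7.29, 5.70 and 4.70 in unloaded and 12.1 and 32.2 in walked pools. It was lowest in the unloaded pools as well, while its walked values overlapped the controls.

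GLUT1 is also carried by endothelial and red blood cells. Endothelial markers measured were Pecam1, Kdr and Flt1 (3 of 8 listed). They summed to 290.5 to 354.8 in control, 279.7 to 300.4 in unloaded and 276.6 to 307.8 in walked arrays. Their log2 fold changes with unloading were -0.27, -0.90 (on a dim probe set) and 0.02. The list medians were -0.27 with unloading, 0.07 with walking and -0.31 in walked against control. The 4 red cell markers Hbb, Hbb-b1, Alas2 and Slc4a1 (of 6 listed) summed to 6175 to 7402, 5851 to 8266 and 4376 to 6106. Their medians were -0.07, -0.32 and -0.43 in the 3 comparisons, with Slc4a1 at 0.54 in walked against control. Limma called 0 in either list. With 6.21%, 4.09% and 8.37% of all genes called, that says nothing particular about so few markers. The part of these cell types in the Slc2a1 signal was not tested.

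Slc2a4 encodes GLUT4, the insulin- and contraction-responsive transporter of muscle. Its signal was 1618 ± 98.7 (SD, n = 3) in control, 1624 ± 175 (n = 3) in unloaded and 1651 ± 12.1 (n = 2) in walked soleus. The log2 fold change was 0.00 in unloaded against control, with a 95% interval of -0.26 to 0.26, and 0.03 in both walked comparisons, with intervals of -0.26 to 0.32. The second probe set gave 0.06, 0.22 and 0.27, none called. The fructose transporter Slc2a5 was dim, at 61.3, 33.6 and 10.2 in the control pools, 37.5 ± 10.3 in unloaded and 36.2 ± 10.9 in walked soleus, and its interval in unloaded against control ran from -0.84 to 1.65.

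Hk2, the inducible hexokinase of muscle, read 372, 387 and 233 in control, 271, 263 and 223 in unloaded and 488 and 670.01 in walked pools. Both walked arrays exceeded every other array, while control and unloaded arrays overlapped through the low value of control pool 3. Hk2 rose by 1.19 ± 0.23 from unloaded to walked soleus (2.28-fold, adjusted p = 0.0135, limma) and was higher than control by 0.83 ± 0.23 (adjusted p = 0.0497). Its log2 fold change of -0.36 ± 0.21 in unloaded against control was not called (adjusted p = 0.364). The second probe set of Hk2 read 162, 168 and 69.7, then 74.1, 25.1 and 77.2, then 427 and 520.0, and gave 3.17 ± 0.48 for walked against unloaded (adjusted p = 0.00269) and 1.93 ± 0.48 for walked against control (adjusted p = 0.034). Control pool 3 was again the low control. Without it, unloaded against control was -0.59 on the first probe set (adjusted p = 0.0716) and -1.65 on the second (adjusted p = 0.0342, against 0.116 with all arrays).

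The rise of Hk2 from unloaded to walked was lost on the first probe set without unloaded pool 3 (adjusted p = 0.0518) or walked pool 2 (0.169) and held on the second without any 1 array (up to 0.0427). With no filter on signal both were lost (adjusted p = 0.1 and 0.0716), and without a mean-variance trend the first (0.0598). The difference from control was lost on the first probe set without any 1 array (0.053 to 0.332), and on the second without control pool 3 (0.0695; 1.52) or walked pool 1 (0.117) or 2 (0.193). On both probe sets the Hk2 difference from control was also lost with no filter, without a trend and with pool number as a block. On the first it was lost without rescaling and in the 2-group fit as well. Hk1, the constitutive hexokinase, read 135 ± 52.1, 130.1 ± 17.1 and 130.4 ± 7.63 in control, unloaded and walked soleus. Its log2 fold changes were 0.01, 0.01 and 0.02, with intervals as wide as -0.61 to 0.64.

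**Figure D2:**
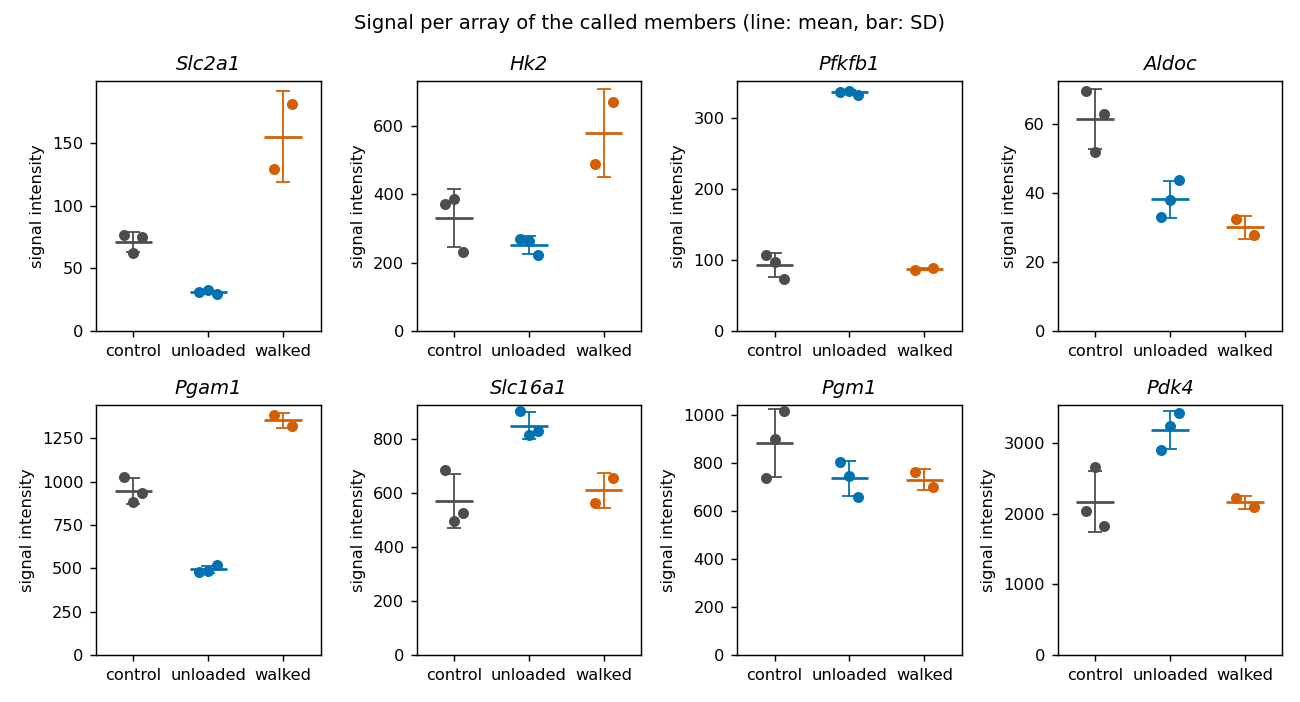
Signal intensity (y axis, linear, from 0) on each array of the 8 genes with a call on any probe set, in control (3 arrays), unloaded (3) and walked (2) soleus. Points are arrays, lines group means and bars SD, each for the brightest probe set. Slc2a1, Hk2 and Pgam1 are highest in walked arrays, Pfkfb1, Slc16a1 and Pdk4 in unloaded arrays. The Pgm1 probe set drawn is the one of 3 that was not called.

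Pfkfb1 encodes a bifunctional enzyme that makes and breaks fructose 2,6-bisphosphate, the activator of phosphofructokinase, in liver and muscle forms. Its brightest probe set read 108, 97.2 and 74.0 in control, 337, 338 and 333 in unloaded and 86.4 and 88.9 in walked pools. All unloaded arrays stood far above the rest, and walked arrays lay within the range of the controls. Pfkfb1 rose by 1.87 ± 0.17 with unloading (3.66-fold, adjusted p = 5.92e-05, limma) and fell by 1.94 ± 0.19 with walking (3.83-fold lower, adjusted p = 8.15e-05). Walked against control was -0.07, with an interval of -0.48 to 0.34. Calls in both directions held without any 1 array.

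The other Pfkfb1 probe sets were dimmer over all arrays and differed among themselves. One read 21.0, 23.9 and 13.2 in control, 56.3, 61.5 and 63.6 in unloaded and 26.1 and 36.2 in walked pools, and rose by 1.69 ± 0.33 with unloading (adjusted p = 0.0106), with -0.97 from unloaded to walked (adjusted p = 0.199). Another, named for an exon, had 1.40 (adjusted p = 0.145) and 0.19 in these comparisons. Its control values were 25.8, 21.0 and 6.001, and without control pool 3 the 1.40 became 0.75. The last, named for the same exon sequence, had -0.41 (adjusted p = 0.673) and -0.54 (adjusted p = 0.669). It read 89.6, 50.8 and 140 in control, 41.7, 110 and 58.5 in unloaded and 73.1 and 27.1 in walked pools. Its control mean of 93.4 was like the 93.0 of the brightest probe set, so low signal in control does not set it apart. Thus 2 of 4 probe sets were called with unloading and 1 of 4 with walking. The dimmer of the 2 had all control arrays under the signal limit of 25.8. It was tested only through its high unloaded arrays, so its call is not separate support for the rise. Which transcript form each probe set reads was not tested. The related Pfkfb2 lay below the signal limit, at 24.6 ± 16.6, 20.2 ± 15.1 and 25.6 ± 5.89 on its brighter probe set.

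**Figure D3:**
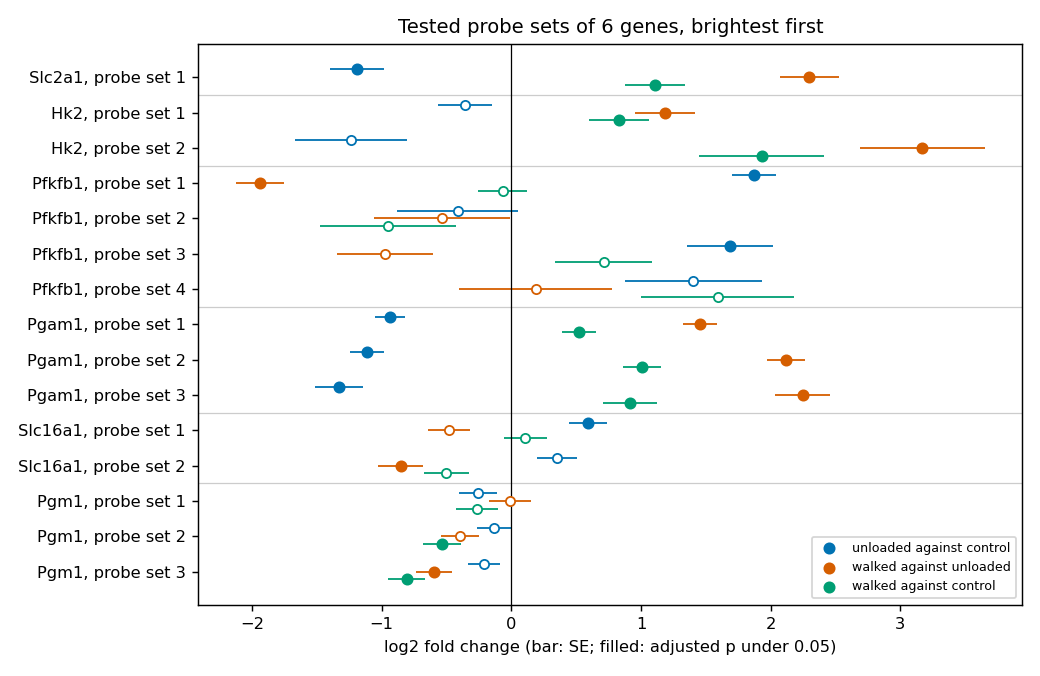
Log2 fold change (x axis, bar = SE) of each tested probe set of 6 genes (y axis, brightest first within a gene) in the 3 comparisons, with filled points for an adjusted p under 0.05. The 3 Pgam1 probe sets lie on the same side of 0 in every comparison, whereas the 4 of Pfkfb1 spread from -0.41 to 1.87 in unloaded against control.

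Phosphofructokinase commits sugar to glycolysis. Pfkm, its muscle subunit, read 1847 ± 37.5, 1878 ± 184 and 1532 ± 112, with -0.29 ± 0.13 in walked against unloaded (adjusted p = 0.277) and -0.02 on the second probe set. Pfkl, the liver subunit, was dim: 46.5, 53.6 and 43.3 in control, 25.1, 25.2 and 19.7 in unloaded and 21.0 and 21.4 in walked pools. Every control array lay above every other array, but the log2 fold changes of -1.04 ± 0.32 (unloaded against control, adjusted p = 0.0804) and -1.17 ± 0.36 (walked against control, adjusted p = 0.0655) were not called. Without a mean-variance trend in the variance model both were called (adjusted p = 0.0129 and 0.0192). All unloaded and walked arrays lay under the signal limit, so Pfkl was tested only through its high control arrays. The calls without a trend are therefore not separate support for a fall. Pfkp, the platelet subunit, had 33.8 ± 9.43, 23.6 ± 10.3 and 46.9 ± 4.43 and was not called.

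Aldolase splits the 6-carbon sugar in the next step. Aldoa, the muscle form, read 4366 ± 361, 4649 ± 364 and 4927 ± 353 and was not called in any comparison. Aldoc, the brain form, read 69.4, 51.9 and 62.9 in control, 33.0, 37.8 and 43.7 in unloaded and 32.3 and 27.7 in walked pools. The groups did not overlap, with control highest and walked lowest. Aldoc fell by 1.03 ± 0.28 in walked against control (adjusted p = 0.0458), a call lost without any 1 array (adjusted p 0.051 to 0.215). It had -0.69 in unloaded against control (adjusted p = 0.138), and its second probe set was too dim to test. Among the 4 measured Schwann cell and nerve markers (of 9 listed; Pmp22, Prx, Mbp and Mag), the summed signal was 637.7 to 705.3, 598.0 to 647.2 and 636.4 to 636.6, with a median log2 fold change of 0.15 from unloaded to walked soleus, where Prx fell by 1.23 (adjusted p = 0.0421) and Pmp22 (0.23), Mbp (0.41) and Mag (0.07) were not called. The part of nerve in the Aldoc signal was not tested.

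Phosphoglycerate mutase moves the phosphate of the 3-carbon acid in lower glycolysis. Pgam1, the widespread form, read 1025, 880 and 935 in control, 478, 485 and 516 in unloaded and 1384 and 1323 in walked pools. No group overlapped another, with unloaded lowest and walked highest. Pgam1 fell by 0.94 ± 0.12 with unloading (1.92-fold lower, adjusted p = 0.000635, limma), rose by 1.46 ± 0.13 with walking (2.75-fold, adjusted p = 5.06e-05), and was 0.52 ± 0.13 above control after walking (adjusted p = 0.0345).

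The other Pgam1 probe sets moved further in the same directions. The second read 427, 398 and 444, then 217, 175 and 198, then 852 and 845, for -1.11 ± 0.13, 2.12 ± 0.15 and 1.01 ± 0.15 in the 3 comparisons. The third read 161, 147 and 177, then 79.4, 60.2 and 55.1, then 265 and 349, for -1.33, 2.25 and 0.92. All 3 probe sets were called in all 3 comparisons (adjusted p of 0.0345 or less). The first and the second are named for the same sequence, so their agreement is not separate support. The calls against unloaded soleus held without any 1 array, as did that of the second probe set against control (adjusted p up to 0.0355). The difference from control was lost on the first probe set without control pool 2 or 3 or either walked pool (0.0593 to 0.167) and on the third without control pool 2 or either walked pool (0.0587 to 0.202).

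Pgam2, the muscle form of the same enzyme, read 862 ± 23.1 (n = 3), 848 ± 99.4 (n = 3) and 753 ± 62.1 (n = 2). Its log2 fold changes were -0.03, -0.17 and -0.20, and its interval of -0.48 to 0.14 in walked against unloaded did not reach the rise of Pgam1. The remaining lower-glycolysis genes were not called in any comparison. Pgk1, which makes ATP in the step before the mutase, read 2117, 2527 and 1281 in control, and control pool 3 was again low, at 446 against 938 and 1098 on the second probe set. Its 0.29 in unloaded against control was 0.01 without that pool. Eno1 and Eno3, the widespread and the muscle enolase, had -0.10 and -0.11 with unloading and -0.25 (adjusted p = 0.43) and -0.01 with walking. Pkm, pyruvate kinase, read 1757 ± 8.91, 1785 ± 107 and 1981 ± 222 and had 0.02 with unloading and 0.15 with walking.

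Isoform genes of one step were also compared as a log2 ratio within each array, which is unaffected by a single scaling factor per array. Of 10 pairs, 8 were measured. The Pgam1 to Pgam2 ratio was 0.13 ± 0.07 (SD) in control, -0.78 ± 0.17 in unloaded and 0.85 ± 0.17 in walked arrays. The Slc2a1 to Slc2a4 ratio was -4.51 ± 0.25, -5.70 ± 0.14 and -3.43 ± 0.35. Neither ratio overlapped between any groups. The Hk2 to Hk1 ratio was 1.33 ± 0.73, 0.96 ± 0.32 and 2.13 ± 0.41, so that walked and unloaded arrays did not overlap but control overlapped both.

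The Aldoc to Aldoa ratio was 0.78 lower in unloaded than in control arrays and 1.20 lower in walked than in control arrays, without overlap (0.85 lower in the latter after quantile normalization). The Pdk4 to Pdk2 and Eno1 to Eno3 ratios overlapped between control and both other groups. Pygb to Pygm overlapped between control and unloaded and was 0.35 lower in walked than in control arrays, and Pfkp to Pfkm was 1.36 higher in walked than in unloaded arrays. In 24 comparisons of ratios the smallest exact permutation p (two-sided) was 0.1, which is the smallest that 3 against 3 or 3 against 2 arrays allow, and 0.2 after Benjamini-Hochberg adjustment, so no pair passed and none could have.

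**Figure D4:**
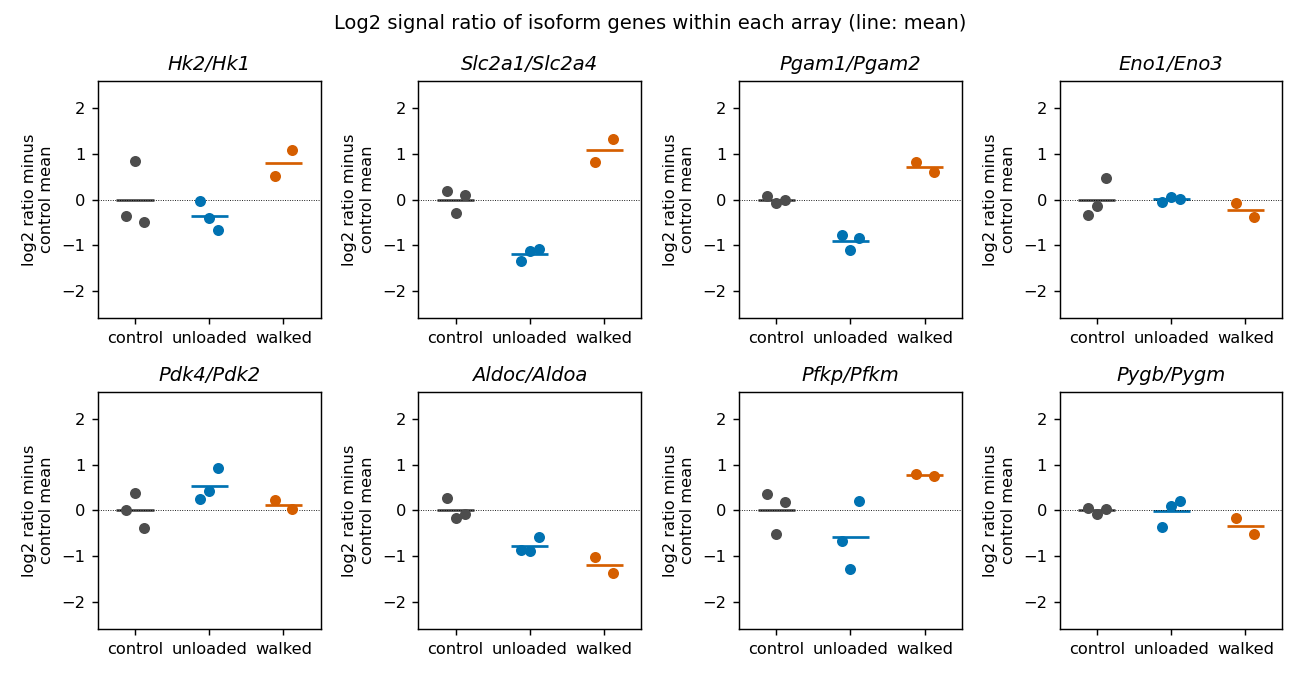
Log2 signal ratio of 8 isoform pairs within each array, minus the control mean of that pair (y axis), in control, unloaded and walked arrays. Points are arrays and lines group means. Pgam1/Pgam2 and Slc2a1/Slc2a4 lie below the dotted control mean in all unloaded arrays and above it in both walked arrays.

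Lactate dehydrogenase and the monocarboxylate transporters handle the end product. Ldhb, the form common in oxidative muscle and heart, read 4941 ± 61.1, 4654 ± 219 and 4834 ± 594 and had -0.09 and 0.05 in unloaded against control and walked against unloaded, neither called. Slc16a1 encodes MCT1, a lactate and pyruvate carrier. It read 684, 497 and 527 in control, 905, 813 and 831 in unloaded and 564 and 654 in walked pools, so the unloaded arrays were above all others and walked arrays within the control range. Slc16a1 rose by 0.59 ± 0.15 with unloading (1.51-fold, adjusted p = 0.0326) and had -0.48 ± 0.16 with walking (adjusted p = 0.145). On the second probe set, at 252, 300.3 and 277, then 394, 325 and 339, then 169 and 224, the rise was 0.35 (adjusted p = 0.224) and the fall with walking 0.85 ± 0.18 (adjusted p = 0.0181). The rise on the first was lost without control pool 2 or 3 or any 1 unloaded pool (adjusted p 0.0599 to 0.117), and the fall on the second without unloaded pool 1 (0.0702) or walked pool 1 (0.19).

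Of 5 glycogen genes, limma called 0 on the brightest probe set in each comparison, with 0 at an unadjusted p under 0.05. With 6.21%, 4.09% and 8.37% of all genes called, a count of 0 of 5 says nothing particular about them. Pygm, the muscle glycogen phosphorylase, read 1258 ± 125, 1263 ± 260.1 and 1447 ± 6.63. Its log2 fold change was -0.01 with unloading (interval -0.35 to 0.33) and 0.22 with walking (-0.16 to 0.59). Pygb, the brain form, had -0.03 and -0.11, and 0.93 and 0.03 on a dim second probe set, neither called. Phka1 and Phkg1, subunits of the kinase that activates phosphorylase, had -0.17 and 0.31 with unloading and 0.13 and -0.27 with walking. A second Phkg1 probe set went the other way with unloading (-0.22) and had -0.32 with walking. In walked against control it had -0.54 without overlap and was not called (adjusted p = 0.135, limma).

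Pgm1, which interconverts glucose 1-phosphate and glucose 6-phosphate between glycogen and glycolysis, was called on 2 of 3 probe sets. Its dimmest probe set read 461, 467 and 459.7 in control, 375, 387 and 442 in unloaded and 266 and 262 in walked pools. The groups did not overlap, with walked lowest. On it Pgm1 fell by 0.81 ± 0.14 in walked against control (1.75-fold lower, adjusted p = 0.00655) and by 0.60 ± 0.14 in walked against unloaded (adjusted p = 0.0363). The middle probe set fell by 0.53 ± 0.15 in walked against control (adjusted p = 0.0441), and the brightest had -0.26 ± 0.16 (adjusted p = 0.358), with overlapping groups. The call of the dimmest probe set against control was lost without walked pool 1 (adjusted p = 0.0507) or 2 (0.0678), and against unloaded without any 1 array but control pool 3 (up to 0.201). That of the middle probe set was lost without any 1 control or walked pool or unloaded pool 1 (up to 0.193).

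Pyruvate dehydrogenase kinases phosphorylate and inactivate pyruvate dehydrogenase, and Pdk4 is the form induced by fasting. Pdk4 read 2030.4, 2653 and 1821 in control, 2896, 3245 and 3422 in unloaded and 2222 and 2094 in walked pools. All unloaded arrays were above all control and walked arrays. Pdk4 rose by 0.57 ± 0.15 with unloading (1.49-fold, adjusted p = 0.0384, limma), a call lost after quantile normalization and in 7 of 8 fits that left out 1 array (all except the one without control pool 2), with an adjusted p as high as 0.116. The fast-fibre sum was also highest in the unloaded arrays, as were Pfkfb1 and Slc16a1, and its part in these values was not tested. From unloaded to walked it had -0.56 ± 0.16 (adjusted p = 0.0915; 0.0465 without control pool 3), and walked against control was 0.01 with an interval of -0.35 to 0.37.

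Pdk2, the broadly expressed kinase, had 0.04 and -0.16 with unloading and walking. Pdk1 read 153 ± 24.0, 127 ± 18.4 and 98.2 ± 2.12, and its -0.62 ± 0.20 in walked against control was not called (adjusted p = 0.0777). The enzyme's own subunits Pdha1 and Pdhb had 0.17 and 0.13 with unloading and 0.19 and 0.01 with walking. Pdha1 was 0.35 ± 0.14 above control after walking on its brighter probe set (adjusted p = 0.131) and -0.07 on the other.

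Of 67 other genes of glucose and glycogen metabolism and its control, 29 were tested. With unloading 1 of 29 was called (3.45%), with walking 1 (3.45%) and in walked against control 5 (17.2%), beside the 6.21%, 4.09% and 8.37% of all genes. Ogt, which attaches a sugar made from glucose to proteins, read 3.80, 19.0 and 11.2 in control, 51.8, 56.3 and 44.3 in unloaded and 45.4 and 37.6 in walked pools. All control arrays were lowest and under the signal limit of 25.8, so Ogt was tested only through the other groups. It was called higher than control with unloading (adjusted p = 0.0183) and after walking (adjusted p = 0.0494), and since control pool 1 lay under the floor of 4.10, the fitted sizes of 2.40 and 2.11 depend on that floor. The first call was lost without unloaded pool 1 or 2, and the second with no floor and without any 1 array other than control pool 2. Txnip, an inhibitor of thioredoxin and of glucose uptake, read 2198 ± 262 in control, 2951 ± 165 in unloaded and 928 ± 152 in walked soleus. Txnip fell by 1.68 ± 0.15 with walking (adjusted p = 5.12e-05) and by 1.25 ± 0.15 against control (adjusted p = 0.000813), and had 0.43 ± 0.13 with unloading (adjusted p = 0.0851).

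In walked against control soleus 3 further genes fell: the pyruvate carrier Slc16a7 (MCT2; -1.19, adjusted p = 0.035), the pyruvate dehydrogenase component Pdhx (-0.71, adjusted p = 0.04) and Stx4, a membrane fusion protein that docks GLUT4 vesicles (-0.67, adjusted p = 0.039). The count of 5 was between 1 and 4 without any 1 array. On dimmer probe sets, Pdp1, a phosphatase that reactivates pyruvate dehydrogenase, rose by 0.90 with unloading (adjusted p = 0.0169) and fell by 1.05 with walking (adjusted p = 0.019), and its brighter probe set had 0.69 and -0.88 (adjusted p = 0.116 and 0.111). A dimmer probe set of Akt2, a kinase of insulin signalling, fell by 0.74 in walked against control (adjusted p = 0.0486), and the brighter had -0.32 (adjusted p = 0.234). Among regulators and carriers related to the called members, Pfkfb3 had 1.12 ± 0.39 with unloading (adjusted p = 0.116) and Slc16a3, the lactate exporter MCT4, -0.52 ± 0.22 (adjusted p = 0.189). The pyruvate carrier subunit Mpc1 read 3848 ± 99.4, 4450 ± 161 and 4854 ± 242 and was not called (adjusted p = 0.0872 in walked against control).

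Over probe sets rather than genes, 8 of the 50 members (16%) were called in unloaded against control, beside 7.3% of all 5244 probe sets. From unloaded to walked soleus 9 of 50 (18%) were called beside 4.2%, and 9 of 50 differed from control after walking beside 9.08%. Groups that did not overlap were more common than calls throughout the array. Among the 29 genes 8, 12 and 13 had no overlap in the 3 comparisons, 27.6%, 41.4% and 44.8%, close to the 25%, 35.4% and 42.1% of all tested genes.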

How the data were processed

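Soleus RNA of 8 to 10 rats per pool (10 microg labelled with biotin, per the labels) was measured on 8 one-colour Affymetrix arrays: 3 control, 3 unloaded and 2 walked. The deposited values are signal intensities made by the authors with MAS5, per the submitters' processing notes, while its version and target value were not given there.

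Each array was scaled to a 2% trimmed mean of 148.6, signals under the 10th percentile (4.10) were set to it, and log2 was taken. Probe sets under the 40th percentile of mean signal (25.8) were left out, and 5244 of 8740 were tested with limma 3.58.1 in R 4.3.3 (3 groups, mean-variance trend, two-sided, 5 residual degrees of freedom), with Benjamini-Hochberg adjustment over all of them. Intervals are 95% intervals of the fitted log2 fold change. The script was tested on simulated data.

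Genes were named from the platform annotation through Entrez IDs (7006 probe sets with 1 symbol, 308 with several, 1426 with none; 6985 in the GRCr8 gene table). Every member is named, with array values for called genes, and other pathway genes where called on any probe set. Pfkfb3, Slc16a3 and Mpc1 were named after their values were seen. The members and lists were chosen with earlier results of these data known. Alternatives were scaling, floor, filter, trend, 2-group fits, pool number as a block, probe set means and leaving out each array. Probe set names with a letter before the final part (such as those of Slc2a1 and Pfkfb1) can match several transcripts.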

Additional observations from a re-analysis of the deposited data

How the results depend on the processing

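Of 26 called results of single member probe sets, 12 kept their call in every alternative in which they were tested and 13 in every fit that left out 1 array; over 440 refits, 347 kept the call, 93 lost it and 0 changed direction. Among the 12 were those of Slc2a1 and Pgam1 in the comparisons with unloaded soleus and those of the called Pfkfb1 probe sets. The last of the 12 was that of the second Pgam1 probe set against control. The 13 also held that of the second Hk2 probe set in walked against unloaded soleus, which was lost with no filter. The dimmer called Pfkfb1 probe set passed the reported signal limit only through its unloaded arrays and was left untested by the 60th percentile filter. Adding the pool number as a replicate block left 5 member genes called in unloaded against control and 4 in walked against unloaded, but 1 of 4 in walked against control (3 of 9 probe sets). Deviations from the group means correlated at -0.067, -0.036 and 0.052 between same-numbered control and unloaded pools. For walked pools they correlated at -0.013 and -0.009 with control and at -0.01 and 0.027 with unloaded pools. So few pools cannot decide whether those of the same number belong together. With no filter, 3 member genes were called in unloaded against control and 2 in walked against control (4 probe sets). The last comparison gave 2 genes with only the 2 groups in the fit and 5 probe sets without a trend. Leaving out 1 array gave 3 to 4 member genes in unloaded against control and 0 to 2 in walked against control (1 to 7 probe sets). For the other pathway genes, unloaded against control gave 0 with no filter, 0 with the stricter filter at the 60th percentile, 2 with the block and 0 to 1 without 1 array. With the reported setting limma called 1, and 7 of 29 had an unadjusted p under 0.05. Walked against unloaded gave 2 with the block and 1 to 2 without 1 array. Walked against control gave 2 after quantile normalization, 1 with no filter, 3 with the stricter filter, 2 without a trend, 1 with the block, 2 with 2 groups and 1 to 4 without 1 array. The cause of these changes was not tested. Dim probe sets, such as those of Slc2a5, Pfkl, Pfkp and Ogt, limit what can be seen.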
